A study of Nannochloropsis oceanica strain IMET1 with 6 samples.

Results

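Trans contacts that join the ends of different chromosomes were examined in *N. oceanica* IMET1, a unicellular marine alga, before and after nitrogen deprivation (ND). In Hi-C, DNA segments that lie close together in the fixed nucleus are ligated and sequenced as read pairs. The data are lists of significant trans-interactions, which are pairs of 1-kb bins on different chromosomes that share more Hi-C read pairs, here called contacts, than expected. An interaction was taken as end-to-end when the midpoints of both bins lay within 20 kb of the left or right end of their chromosome. The left end is position 0, and the right end is the highest position of that chromosome in any of the 6 lists, so that a true right end may lie further out. The members were thus chosen by their listed contacts and their positions, so their contact counts and their number are a description, with no test. The rule took 363 of 2203 listed trans-interactions. C0 gave 255 of its 587, N1 gave 4 of 98 and N2 gave 104 of 1518.

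The cells were of strain IMET1, grown under continuous light in f/2 medium and bubbled with air. C0 are nitrogen-replete (NR) cells sampled in the logarithmic phase. N1 and N2 are cells from such cultures that were washed and kept in nitrogen-free medium for 1 day and 2 days. By the study's methods, the light was also dimmer after this transfer than before it. Effects of nitrogen and of light therefore cannot be told apart between C0 and the other groups. Each group had 2 replicate libraries, 6 in all, but the authors pooled the replicates before they called interactions, so each group has a single list, no spread between cultures can be given and no test between groups was possible. Intervals are exact 95% intervals, Poisson for counts and binomial for shares. They cover counting error only and treat bin pairs as independent, although many share a bin.

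A eukaryotic chromosome ends in a telomere, a repeat array with a protein cap, and next to it lies the subtelomere, which is often rich in repeats. In budding yeast the telomeres are gathered in a few foci at the nuclear envelope. In Hi-C such gathering is seen as contacts among the ends of many chromosomes, in contrast to a pairing of particular chromosomes. No sequence is shown because a nuclear genome of this alga was not used here, and no gene is named for the same reason.

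Depth differed between the groups. From the p-values, the caller's mean for an average trans bin pair was 0.0426 contacts in C0. It was 0.0137 in N1 and 0.0293 in N2. Few contacts were therefore enough for an interaction to be listed. The 255 end-to-end interactions at C0 had 4 to 8 contacts each, with a median of 5, and 1246 contacts in all. The 4 at N1 had 4 contacts each. The 104 at N2 had 4 to 8 contacts, with a median of 4, and 485 contacts in all. The caller's mean, corrected for the bins' bias factors where these were usable and uncorrected elsewhere, is called the expected count. Relative to it, the C0 interactions lay between 47.4 and 285 times, with a median of 107 times. The median was 276 times at N1 and 137 times at N2. These ratios chose the interactions, and a shallower group needs a larger ratio, so they are no measure of strength between groups. Other trans-interactions had medians of 117 times in C0, 137 times in N2 and 394 times in N1. These medians mix corrected and uncorrected pairs. End-to-end interactions with usable factors had medians of 102 times at C0 and 109 times at N2. Those without had 117 times at C0 and 137 times at N2.

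In NR cells, a large part of the listed trans-interactions joined chromosome ends. End-to-end interactions made up 43.4% of the C0 list (95% interval 39.4% to 47.6%), while end-to-end bin pairs are 0.151% of all trans bin pairs. Of all trans bin pairs, the C0 list held 0.000127%, the N1 list 0.0000212% and the N2 list 0.000329%. Per 1000000 bin pairs, 366 end-to-end pairs were listed at C0 against 0.720 of the other trans pairs, which is 509 times as many. At N2 the values were 149 and 3.07, or 48.7 times as many, and end-to-end interactions were 6.85% of the list (5.63% to 8.24%). At N1 they were 5.75 and 0.204, or 28.2 times, and 4.08% of the list (1.12% to 10.1%). Behind the lower share at N2 stood 104 end-to-end interactions (85.0 to 126) against 255 at C0 (225 to 288), and 1311 interactions with no bin in an end against 304.

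In NR cells, most interactions of chromosome ends were with other ends. Of 283 interactions at C0 with a bin in an end, 255 had the other bin in an end as well, which is 90.1% (86.0% to 93.3%). At N2 this held for 104 of 207, or 50.2% (43.2% to 57.2%), and at N1 for 4 of 12, or 33.3% (9.92% to 65.1%). With usable bias factors in both bins the shares were 91.3% at C0 (87.0% to 94.5%) and 59.1% at N2 (46.3% to 71.0%). The bias factor is the value by which the authors' caller corrects a bin for its general tendency to give contacts. It is 1 for an average bin and -1 where the bin has no usable factor.

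The contacts thinned out steeply inward. When each trans-interaction was placed by its farther bin, 2690 per 1000000 bin pairs were listed at C0 with both bins within 5 kb of an end (117 interactions). Between 5 and 10 kb there were 567, between 10 and 15 kb 147 and between 15 and 20 kb 105. Beyond the limit of 20 kb the density went on falling, to 16.1 between 20 and 30 kb (14 interactions) and 0.319 between 80 and 100 kb (2 interactions). At N2 the density within 5 kb was 759 (33 interactions) and fell to 46.0 between 10 and 15 kb. It was higher again between 15 and 20 kb, at 125 (38 interactions), of which 5 had usable factors. At N1 the density was 46.0 within 5 kb, from 2 interactions.

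**Figure D1:**
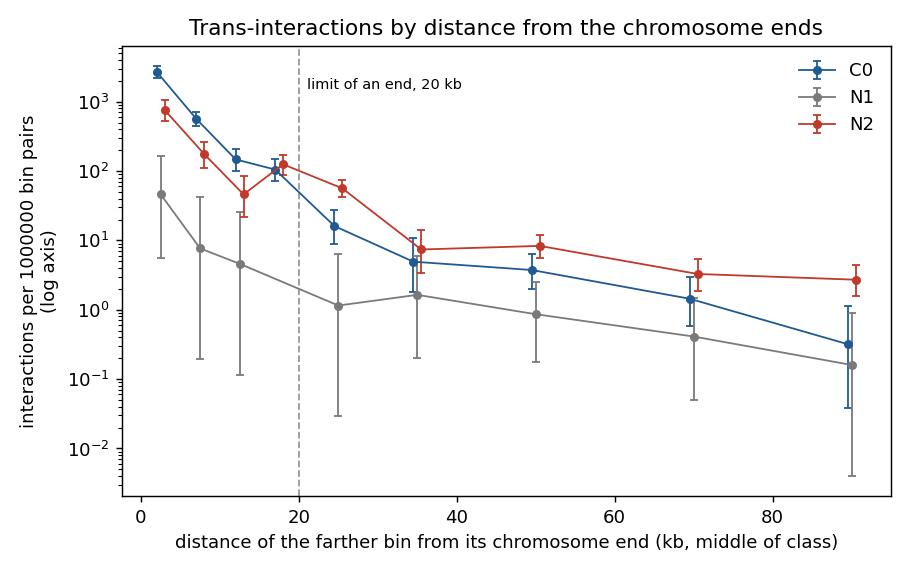
Listed trans-interactions per 1000000 bin pairs (log axis) against the distance of the farther bin from its chromosome end in kb, for C0, N1 and N2; points are classes of distance, bars are exact 95% Poisson intervals, and the dashed line is the 20-kb limit of an end. C0 falls from 2690 within 5 kb to 0.319 at 80 to 100 kb, and the N1 class from 15 to 20 kb, which held none, is not drawn.

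Just inside the limit, 7 interactions at C0 had their farther bin at 18.5 kb, with 4 to 6 contacts and a median of 5. The nearest outside, with its farther bin at 20.5 kb, joined the left ends of chromosomes 18 (20001 to 21000) and 5 with 6 contacts. At N2, 10 interactions reached 18.5 kb, with 4 to 6 contacts, and the nearest outside had 4 contacts at 20.5 kb. At N1 the farthest inside lay at 10.5 kb and the nearest outside at 24.5 kb, both with 4 contacts. No end-to-end interaction at C0 or N2 had a bin between 19 and 20 kb. In both groups interactions were listed on either side of the limit, at a lower density beyond it.

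The outermost bins were used most often. Counting each interaction's 2 bins, 183 of 510 positions at C0 lay in the outermost 2 kb, 35.9% (31.7% to 40.2%), where 10% of the end bins are. The median distance from the end was 3.50 kb. The share did not rest on how right ends were set, being 33.8% at left ends (28.1% to 39.9%) and 38.1% at right ends (32.0% to 44.4%). Both bins lay within 5 kb of their ends in 117 interactions (45.9%, 39.6% to 52.2%). At N2, 53 of 208 positions lay in the outermost 2 kb, 25.5% (19.7% to 32.0%), and 33 interactions (31.7%, 22.9% to 41.6%) had both bins within 5 kb. There the outermost 2 kb held 33.9% of the left positions (25.3% to 43.5%) and 15.6% of the right ones (9.02% to 24.5%).

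Positions with and without a usable factor were distributed differently. At N2, 38 of 78 positions with a usable factor lay in the outermost 2 kb, 48.7% (37.2% to 60.3%), close to the end as at C0 with 38.9% (34.3% to 43.6%). Positions without a factor at N2 lay deeper, with 11.5% in the outermost 2 kb (6.60% to 18.3%) and 32.3% between 15 and 20 kb (24.4% to 41.1%), against 25.0% of the end bins there. At C0 they were likewise spread inward, with 28.6% between 15 and 20 kb (18.4% to 40.6%), but were 70 of the 510 positions only. The 130 positions without a factor at N2 came from 35 bins, and the 70 at C0 from 27. Some bins were counted many times, such as 16001 to 17000 on chromosome 2, counted 7 times at N2. These intervals are therefore too narrow, and the placement rests on few bins.

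**Figure D2:**
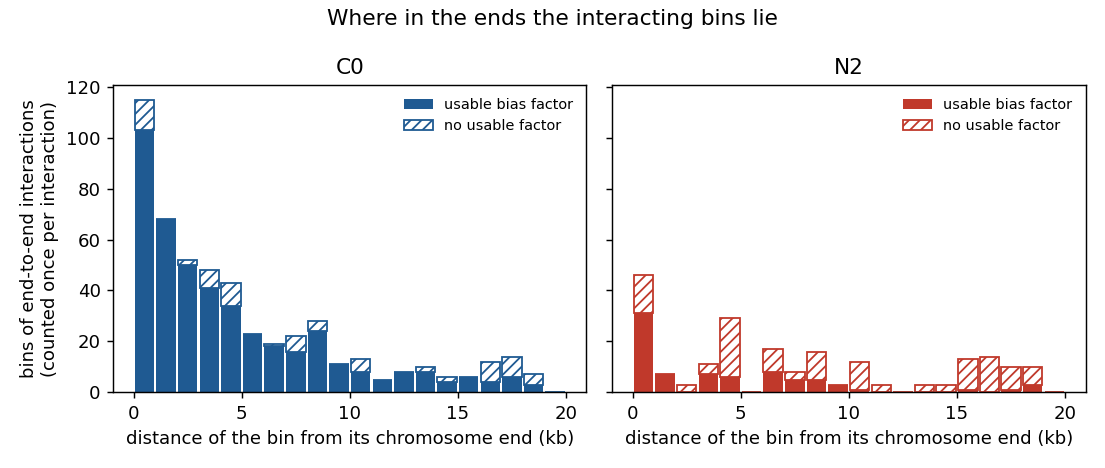
Bins of end-to-end trans-interactions at C0 and N2 by distance from their chromosome end in kb, counted once per interaction; filled bars have a usable bias factor and hatched bars have none. The outermost bin has the tallest bar in both groups, and at N2 the positions between 15 and 20 kb are mostly hatched.

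Left and right ends took part in similar numbers, except at N2 among interactions with usable factors. At C0, 71 interactions joined 2 left ends, 121 a left and a right end, and 63 joined 2 right ends. These are 27.8% (22.4% to 33.8%), 47.5% (41.2% to 53.8%) and 24.7% (19.5% to 30.5%), where the possible pairs of ends give 25.0%, 50.0% and 25.0%. Each of the 3 intervals holds the possible share. Left ends held 51.6% of the positions (47.1% to 56.0%). At N2 the counts were 30, 52 and 22, or 28.8%, 50.0% and 21.2%, and left ends held 53.8% (46.8% to 60.8%). With usable factors only, left ends held 65.4% at N2 (53.8% to 75.8%). There 16 of the 39 interactions joined 2 left ends (41.0%, 25.6% to 57.9%), 19 a left and a right end (48.7%, 32.4% to 65.2%) and 4 joined 2 right ends (10.3%, 2.87% to 24.2%), and the first and last intervals do not hold the possible 25.0%. The first bin of chromosome 20, chosen after its value was seen, was in 9 of these 39 interactions. Without it left ends held 61.7% (48.2% to 73.9%), an interval that holds 50%. The 39 interactions used 53 bins, some of them repeatedly, so these intervals are too narrow. All 4 interactions at N1 joined ends of the same side, 3 of them left ends, which are too few to show a preference.

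No preference for chromosome size was seen. The 30 chromosomes, numbered from the largest, were split into 15 large (from 0.999 Mb) and 15 small ones (up to 0.980 Mb). At C0, 62 interactions joined 2 large chromosomes (24.3%, 19.2% to 30.1%), 139 a large and a small one (54.5%, 48.2% to 60.7%) and 54 joined 2 small ones (21.2%, 16.3% to 26.7%). The possible shares are 24.1%, 51.7% and 24.1%. At N2 the counts were 29, 48 and 27, or 27.9%, 46.2% and 26.0%, and the intervals again held the possible shares. Partners differed in size by a median of 0.351 Mb at C0 and 0.324 Mb at N2, against 0.349 Mb over all chromosome pairs. Across the 30 chromosomes, which share partners and libraries, the rank correlation of size with the number of interactions was 0.102 at C0 and 0.0536 at N2. Both bins were at the same distance from their ends in 24 interactions at C0 (9.41%, 6.12% to 13.7%) and 17 at N2 (16.3%, 9.82% to 24.9%).

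The interactions were spread over nearly all ends, and few pairs of ends recurred. At C0, 55 of the 60 ends took part, on all 30 chromosomes, with a median of 9 interactions per end and at most 18. They made 227 pairs of ends, 13.0% of the 1740 possible, and 201 of these pairs held a single interaction. The ends without any at C0 were the left ends of chromosomes 1, 4 and 14 and the right ends of chromosomes 6 and 19. Of these 5, only the left end of chromosome 4 had an interaction in another group, 1 at N2. Whether the listed coordinates reach the true end there was not tested. At N2, 46 ends took part on 28 chromosomes, in 95 pairs of ends (5.46%), 87 of them with a single interaction.

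**Figure D3:**
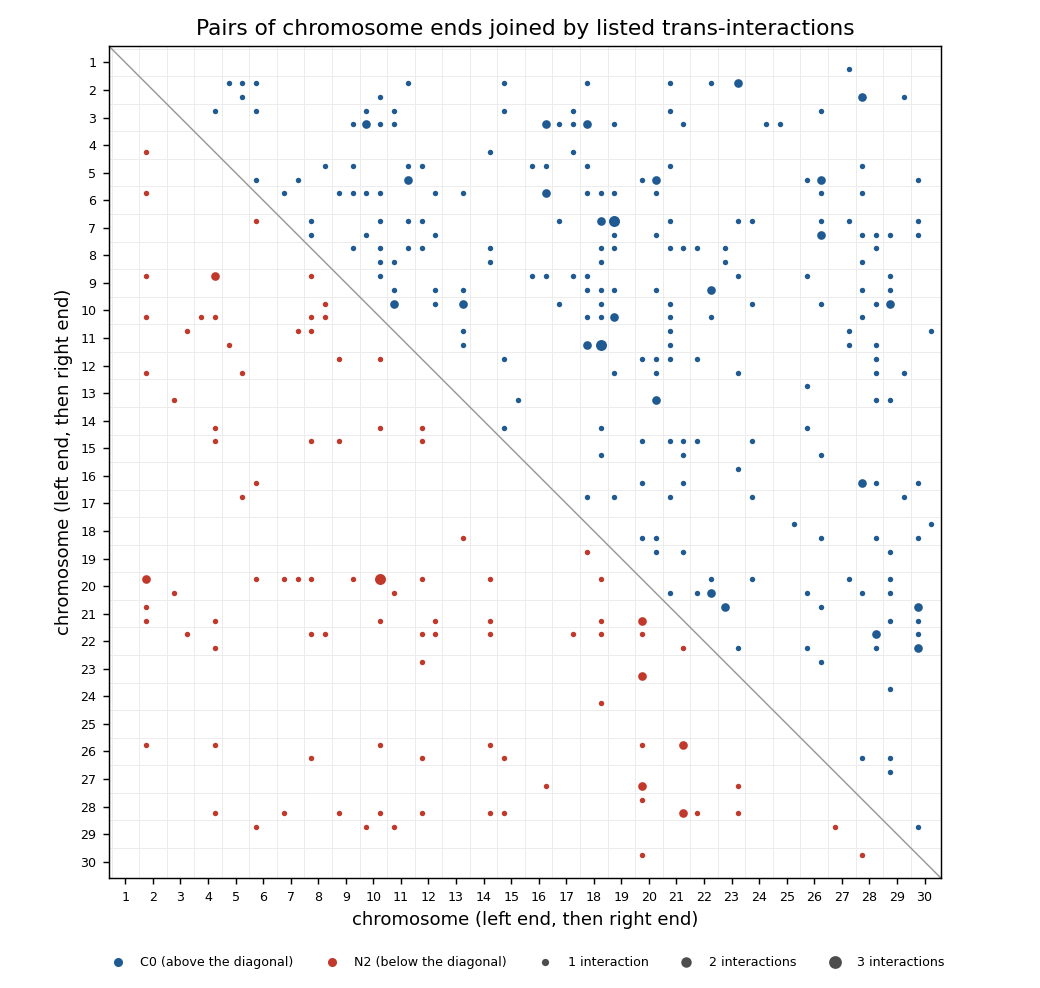
Pairs of chromosome ends joined by at least 1 listed trans-interaction, with the left and right end of each chromosome on both axes; C0 is above the diagonal, N2 below, and dot area grows with the number of interactions (1 to 3). The 227 pairs of C0 and the 95 of N2 are scattered over the ends, while at N2 a row of dots marks the left end of chromosome 20.

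The end with the most interactions over the 3 groups was the left end of chromosome 20, with 9 at C0 and 23 at N2. It was followed by the right end of chromosome 10, with 14 and 13, and by 3 ends with 23 in all. These were the right end of chromosome 18 (18 and 5), the right end of chromosome 28 (12 and 11) and the left end of chromosome 6 (18 and 5). None of the 5 was used at N1. The left ends of chromosomes 10 and 21 and the right end of chromosome 20 also reached 18 at C0, with 2, 1 and 2 at N2. More interactions at N2 than at C0 were seen at 7 ends, and the left end of chromosome 20 had the largest gain and met 17 other ends at N2. A pair of its bins held 21 of the 23 interactions. The bin at 1 to 1000 had 9 partners at N2 and 2 at C0, with usable factors of 1.95 and 1.48. The bin at 4001 to 5000 had 12 partners at N2, 5 at C0 and no usable factor in either group.

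**Figure D4:**
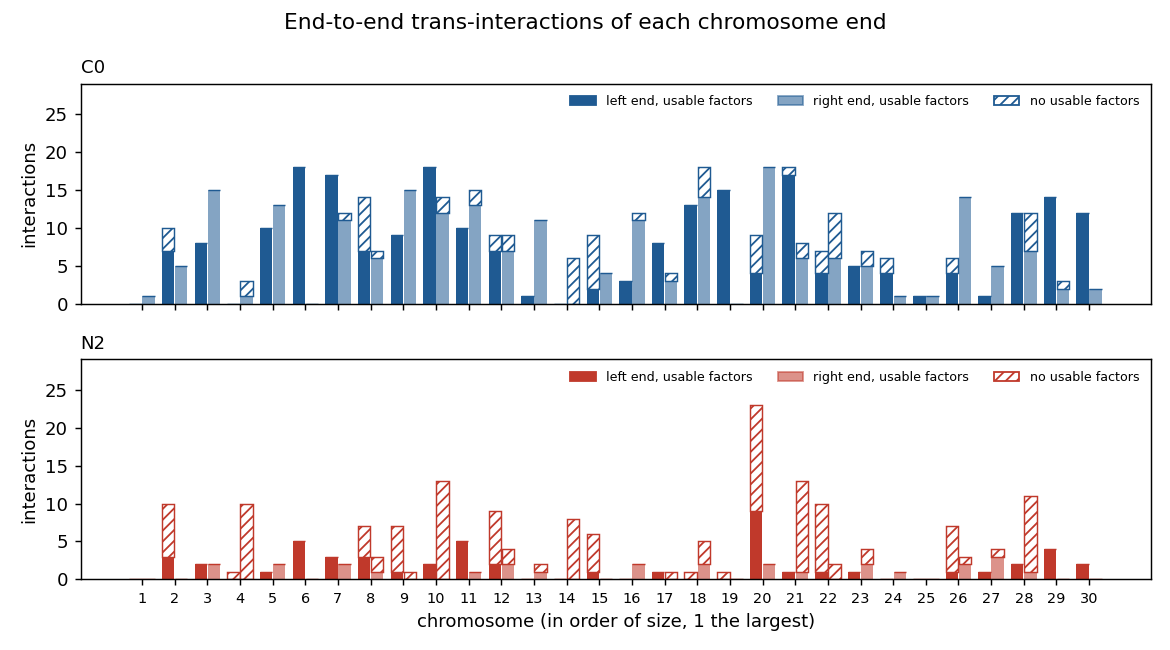
End-to-end trans-interactions of each chromosome end at C0 (top) and N2 (bottom), with chromosomes in order of size; dark bars are left ends and light bars right ends with usable bias factors, and hatched parts are interactions without them. Most C0 bars are filled, and the tallest bar at N2, the left end of chromosome 20 with 23, is mostly hatched.

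No pair of ends held more than 3 interactions. Over the 3 groups, 8 pairs tied at 3. The right ends of chromosomes 11 and 18 had all 3 at C0, with 6 contacts each: 1166001 to 1167000 with 891001 to 892000, 1165001 to 1166000 with 889001 to 890000, and 1153001 to 1154000 with 893001 to 894000. The left ends of chromosomes 19 and 7 also had 3 at C0, with 5, 4 and 4 contacts. The right end of chromosome 10 and the left end of chromosome 20 had 3 at N2 and none at C0. There the bin at 4001 to 5000 of chromosome 20 shared 7, 5 and 4 contacts with 3 bins of chromosome 10, all without a usable factor.

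The highest contact counts were only slightly above the rest. Intervals of the ratios of single pairs, here and below, cover counting error only. They do not allow for the choice of the pairs by these same counts, so they are no evidence of an excess. In C0, the bin of chromosome 14 at 998001 to 999000 shared 8 contacts with chromosome 18 at 893001 to 894000. Both are at right ends and without a usable factor, and this was 188 times the uncorrected expected count (95% interval 81.0 to 370). Chromosome 10 at 2001 to 3000 also shared 8 with chromosome 6 at 1001 to 2000, at left ends with factors of 1.30 and 1.58, which is 91.4 times the expected count (39.5 to 180). Neither pair was listed at N1 or N2.

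In N2, the first bin of chromosome 22 (1 to 1000) shared 8 contacts with 4001 to 5000 on chromosome 20 and 8 with 893001 to 894000 on chromosome 18, each 273 times the expected count (118 to 539). The chromosome 18 bin also shared 7 contacts with 829001 to 830000 on chromosome 21, and chromosome 10 at 1239001 to 1240000 shared 7 with the bin of chromosome 20. None of these bins had a usable factor at N2, so their expected counts were not corrected. With usable factors, 7 contacts joined 890001 to 891000 on chromosome 18 and the first bin of chromosome 20, 102 times the expected count (41.1 to 211). Chromosome 21 at 828001 to 829000 also shared 7 with chromosome 26 at 6001 to 7000, at 98.9 times (39.8 to 204). None of the 6 pairs was in the C0 or N1 list.

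At N1 the 4 interactions had overlapping intervals, and only that of chromosomes 18 and 19 lacked usable factors. They joined chromosomes 21 (2001 to 3000) and 30 (1 to 1000) at 349 times the expected count (95 to 893), and chromosomes 18 (10001 to 11000) and 19 (4001 to 5000) at 293 times (79.8 to 750). The others joined chromosomes 14 (1000001 to 1001000) and 29 (580001 to 581000) at 259 times (70.5 to 662), and chromosomes 26 (6001 to 7000) and 29 (3001 to 4000) at 203 times (55.3 to 520).

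Usable factors were the rule at C0 and the minority at N2. Both bins had one in 220 of the 255 C0 interactions, 86.3% (81.4% to 90.2%). N1 had 3 of 4, and N2 had 39 of 104, 37.5% (28.2% to 47.5%). In the others both bins lacked one. No interaction in any of the 6 lists, cis or trans, joined a bin with to a bin without, so this is not particular to chromosome ends. Whether the caller could list such a mixed pair at all was not tested. The densities per bin pair count mixed pairs as possible. Other trans-interactions had usable factors less often at C0 and N2, in 50.9% (45.4% to 56.4%) and 15.3% (13.5% to 17.3%), but in 95.7% at N1 (89.5% to 98.8%). With usable factors only, end-to-end interactions were 56.6% of the C0 trans list (51.5% to 61.5%), 15.2% of that of N2 (11.1% to 20.2%) and 3.23% of that of N1 (0.670% to 9.14%).

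At N2, a few bins had many partners, while most bins with a factor had 1. The 65 interactions without a factor used 35 bins, and 43 of the 65 (66.2%, 53.4% to 77.4%) involved at least 1 of 5 leading bins. The 39 with factors used 53 bins, 40 of them with 1 partner. Of the 39, 20 (51.3%, 34.8% to 67.6%) involved at least 1 of their 5 leading bins, and the first bin of chromosome 20 alone had 9 partners. Leading bins were chosen by their partners in these same interactions, which the intervals do not allow for. The shares also depend on the number of bins, so they are a description and not a comparison. At C0, the 35 interactions without a factor used 27 bins, and 25 of the 35 (71.4%, 53.7% to 85.4%) involved the 5 leading ones. The 220 with factors at C0 used 202 bins, with at most 9 partners, as for chromosome 10 at 1240001 to 1241000, and 38 of them (17.3%, 12.5% to 22.9%) involved at least 1 of the 5 leading bins. Besides the chromosome 20 bin with 12 partners, the leading bins without a factor at N2 were 574001 to 575000 on chromosome 28 (10 partners, 5 at C0), 829001 to 830000 on chromosome 21 (9, 1 at C0), 1 to 1000 on chromosome 22 (9, 3 at C0) and 1235001 to 1236000 on chromosome 10 (8, 2 at C0). Of these 5, the bins of chromosomes 20, 21, 22 and 10 were listed at N1 with usable factors, of 1.88, 1.72, 1.58 and 1.85. Over all 35 bins, 12 were listed at N1, 10 of them with a factor, and their median was 1.44, against 0.850 over the 1806 bins with a factor in the N1 lists. The 10 factors ranged from 0.515 to 1.88.

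Bins listed in both C0 and N2 mostly kept their status. Of the 35 bins without a factor at N2, 22 were listed without one at C0 too, 3 with one, and 10 were not listed. Of the 202 bins with a factor in the C0 interactions, 123 were listed at N2 with a factor, 3 without one and 76 were in neither N2 list. C0 and N2 shared 59 bins, 25.8% of the 229 at C0 and 67.0% of the 88 at N2. Of these, 37 had a factor in both groups, with medians of 1.18 at C0 and 1.12 at N2. Among all end bins, 19.1% were in end-to-end interactions at C0 and 7.33% at N2.

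Few end-to-end interactions recurred exactly. The same share over all trans-interactions is not given here, so low recurrence cannot be called particular to chromosome ends. C0 and N2 shared 6 end-to-end bin pairs, 2.35% of those at C0 and 5.77% of those at N2, C0 and N1 shared none, and N1 and N2 shared 1. Among the 6, only chromosome 16 at 978001 to 979000 with the first bin of chromosome 6 (1 to 1000) had usable factors. It had 5 contacts at C0 (102 times the expected count, 33.0 to 237) and 4 at N2 (195 times, 53.2 to 500). Of the others, the bin at 3001 to 4000 on chromosome 8 met chromosome 10 at 1235001 to 1236000 and the first bin of chromosome 22, each with 6 contacts in C0 and 4 in N2. Chromosome 12 at 4001 to 5000 met chromosome 15 at 7001 to 8000 with 5 and 4 contacts, and the same chromosome 22 bin with 5 and 5. The last joined chromosome 14 at 982001 to 983000 and chromosome 26 at 17001 to 18000, with 5 and 4 contacts. The pair shared by N1 and N2 was that of chromosomes 18 and 19 above, with 4 contacts in each. Within 5 bins on both sides, 13 of the C0 interactions (5.10%) had a match at N2. Of the 95 pairs of ends joined at N2, 20 (21.1%) were also joined at C0, where 13.0% of all possible pairs were. With usable factors it was 9 of 39 (23.1%), where 11.1% were. The ends differed in use, with 0 to 18 interactions each at C0, and ends used often in both groups raise such overlap. This was not allowed for and no interval was computed, so these values show no excess of recurring pairs.

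The lists were also compared at equal depth. If each contact at C0 were kept with a chance of 0.686, the ratio of the expected counts, and the highest p-value of the N2 trans list were applied, 87.7 of the 255 end-to-end interactions would be listed on average, 67.5 with usable factors and 20.1 without. N2 listed 39 with usable factors (27.7 to 53.3) and 65 without (50.2 to 82.8). The N2 count with factors was thus below the thinned C0 value, and that without was above it. Thinning cannot add bin pairs that missed the C0 list, so its values are low. This matters most for pairs without a factor, where the least count of an end-to-end interaction was 5 in C0 and 4 in N2. Thinned to N1, with a chance of 0.321, C0 would list 8.40 and N2 11.4. N1 listed 4, with an interval of 1.09 to 10.2, which holds the thinned C0 value and lies below the thinned N2 value. As the thinned values are low, it was not settled whether N1 had fewer than C0 at equal depth. The share at N1 was below that of the thinned C0 list, at 4.08% (1.12% to 10.1%) against 28.9%, beside 94 other trans-interactions listed at N1 and 20.7 in the thinned list.

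**Figure D5:**
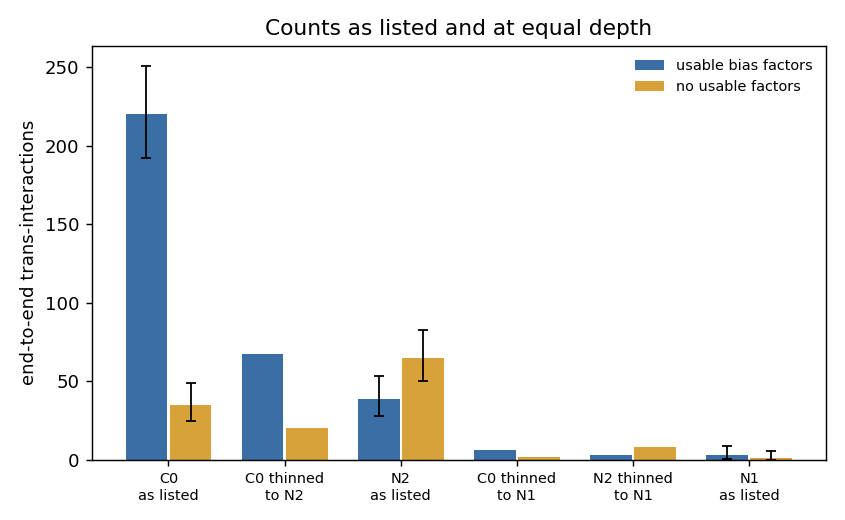
End-to-end trans-interactions with and without usable bias factors, as listed (with exact 95% Poisson intervals) and as the mean outcome when contacts are thinned to the depth of a shallower group (no bars). N2 lists 39 with factors against 67.5 for C0 at that depth, and N1 lists 4 in all against 8.40 for C0.

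Bins that met other chromosomes' ends often also met the opposite end of their own chromosome. At C0, 143 of the 202 bins with a usable factor (70.8%, 64.0% to 77.0%) were in a listed cis-interaction between the left and right end of 1 chromosome, as were 300 of all 1200 end bins (25.0%, 22.6% to 27.6%). Both groups of bins differ in their distance from the end, and within 5 kb of an end the values were 80.0% of 105 bins (71.1% to 87.2%) and 38% of 300 bins (32.5% to 43.8%). At N2, with 54 such cis-interactions against 334 at C0, it was 22 of 53 bins (41.5%, 28.1% to 55.9%) against 6.58% of all end bins (5.25% to 8.14%). Within 5 kb the N2 values were 33.3% of 30 bins (17.3% to 52.8%) and 11% of 300 (7.69% to 15.1%). All end bins also include the member bins themselves, bins without a factor and bins in no list, so these shares compare unlike bins. The part of read coverage per bin in these shares was not tested. Of the 435 chromosome pairs, 3 are among chromosomes 3, 9 and 15. These held 2 end-to-end interactions at C0, none at N1 and 1 at N2, too few to show a lack or an excess.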

How the data were processed

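Hi-C libraries of 3 groups (C0, N1 and N2, 2 replicates each) were analysed from the authors' lists of significant interactions, 1 cis and 1 trans list per group. By the study's methods, the authors filtered reads with Trimmomatic, mapped them to version V2 of the IMET1 genome with ICE, pooled replicates and called interactions with Fit-Hi-C. The submitters' processing notes also list HiC-Pro. The methods speak of 10-kb bins, while positions in the lists are 1 kb apart. Each deposited contact count is a raw count without scaling to depth. Fit-Hi-C gave the authors' deposited p-value and q-value, and all listed interactions have a q-value below 0.01. The deposited score of each bin is its bias factor, between 0.5 and 2, or -1 where none was usable.

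For each listed bin pair, the Poisson mean was solved for which the listed p-value is the chance of at least the listed contacts. It was divided by the bias factors, with 1 in place of -1. Values of a group then agreed within 0.000221%, and their median served as depth. Depth limits precision, since 4 contacts can list a pair. Intervals are Clopper-Pearson and exact Poisson intervals. The thinned values are exact expectations under binomial thinning. The recovery of the Poisson mean, the call of ends, the thinning and the merging of neighbours were tested on simulated data. Python 3.11.15, SciPy 1.17.1 and pandas 2.3.3 were used.

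The interactions described and the rules for naming them were chosen with earlier results of these data known. Named are bin pairs shared by groups, the 5 highest contact counts per group (fewer where ties would make more than 8), the 5 leading ends, the 3 leading pairs of ends, shown by examples from 8 ties, and the pairs nearest the 20-kb limit. Other bins and ends were named after their values were seen. Alternatives were ends of 10 or 40 kb, a q-value below 0.001, at least 5 contacts, usable factors only, merged neighbours, thinning to N1 and leaving out chromosome 20. Thinning to N2, and thinning with usable factors only, were added after seeing the data. The authors' lists of shared interactions hold names only and were not used.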

Additional observations from a re-analysis of the deposited data

How the results depend on the processing

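No paired analysis was possible because the replicates of each group are pooled in its lists, and for the same reason no replicate could be left out. The share of left ends stayed within its interval in 23 of 26 alternatives, and the other shares and counts moved more often. At C0, the 255 end-to-end interactions became 191 with ends of 10 kb, 220 with usable factors only and 114 with a q-value below 0.001. They became 166 with at least 5 contacts, 87.7 thinned to N2, 8.40 thinned to N1, and with usable factors 67.5 and 6.35. Their share of trans-interactions, 43.4%, became 32.5% with ends of 10 kb, 33.9% with a q-value below 0.001, 39.3% with at least 5 contacts, 56.6% with usable factors, 36.6% and 28.9% thinned to N2 and N1, and with usable factors 56.0% and 52.4%. Their share with usable factors, 86.3%, became 92.7% with ends of 10 kb, 69.3% with a q-value below 0.001, 78.9% with at least 5 contacts, and 77.0% and 75.5% thinned to N2 and N1. At N2, the 104 interactions became 56 with ends of 10 kb, 162 with 40 kb and 45 with a q-value below 0.001. They became 44 with at least 5 contacts, 79 without chromosome 20, 39 with usable factors, 11.4 thinned to N1 and 3.02 with both. Their share, 6.85%, became 3.69% with ends of 10 kb, 10.7% with 40 kb, 10.3% with a q-value below 0.001, 10.4% with at least 5 contacts, 15.2% with usable factors, 9% with these thinned to N1 and 5.48% without chromosome 20. Their share with usable factors, 37.5%, became 60.7% with ends of 10 kb and 26.5% thinned to N1, and that of left ends 65.4% with usable factors and 67.0% with these thinned to N1. At N1, 4 interactions became 7 with ends of 40 kb, 2 with a q-value below 0.001, both joining left ends (100%), and 0 (0%) with at least 5 contacts, and the 3 within 10 kb all had usable factors (100%). In all 9 alternatives that gave both values, the share of trans-interactions was higher at C0 than at N2. The number was higher at C0 too, except thinned to N1 without regard to factors (8.40 against 11.4). Alternatives without thinning keep the difference in depth, so their numbers do not compare the groups at equal depth. Thinned to N2, C0 gave 87.7 against the 104 listed at N2 (85.0 to 126), and with usable factors 67.5 against 39.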
